A study of Mus musculus with 16 samples.

Results

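The average effect of a ligature was measured in mouse periodontal ligament by comparing the 8 libraries from teeth with a ligature with the 8 from teeth without one, so all 16 libraries of the series took part. All animals were wild-type male C57BL/6J mice of 9 weeks, the age at operation, and no group carried a transgene. The 4 groups held 4 libraries each: untreated controls, a ligature alone, trauma alone, and a ligature plus trauma. The ligature was a silk thread tied around the left upper second molar to induce periodontitis, and the trauma was composite resin built up on the chewing surface of the same tooth, which overloads it when the mouse bites. The 8 libraries with a ligature are those of ligature and of ligature plus trauma, and trauma (present or absent) was a term of the model. The labels do not say whether a library is 1 mouse, so p-values measure the spread between libraries, and neither the day nor the hour of tissue collection is stated. The series title speaks of bone tissue, whereas the labels give periodontal ligament, which is followed here.

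The periodontal ligament is the thin collagen tissue that hangs the tooth root in its bony socket. A ligature traps bacterial plaque at the gum margin, and the tissue answers with an influx of white blood cells, loss of collagen and resorption of the socket bone by osteoclasts, the bone-resorbing cells made from blood precursors. Osteoclasts form when the cytokine RANKL, encoded by Tnfsf11, binds its receptor, and osteoprotegerin, encoded by Tnfrsf11b, intercepts it. Large responses of this kind show with few samples, whereas modest shifts in housekeeping, metabolic and signalling genes are easily lost in the spread between libraries.

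Total counts were 58458102 to 77468584 per library without a ligature and 59845593 to 72301909 with one, and 20953 genes passed the filter on low counts. Libraries with a ligature differed from the others in more than the genes named below. The summed level of 24 oral epithelium markers was 1330 to 4690 CPM (counts scaled to library size) with a ligature and 2260 to 43600 without, and 19 tested skeletal muscle markers summed to 96.1 to 2190 CPM against 78.9 to 481 CPM. Of the tested genes of those lists 7 epithelial and 12 muscle genes had no count in at least 1 library, among them Myh2 in 10. In 3 libraries (replicate 2 of ligature, replicates 2 and 3 of ligature plus trauma) short transcripts were over-represented: a length score, in which a lower value means relatively less of the long transcripts, was -1.34 to -0.88 in them and -0.45 to 0.86 in the other 13. Their part in each result was not tested as a cause, but the counts of called genes in each list were recomputed with that score as a covariate (9.59% of all genes higher, 8.63% lower) and in the 13 libraries left without them (6.62% and 6.64%). They are given in that order as the other fits. A further fit with a score of the epithelium markers as a covariate, called the epithelial score, is given near the end. In bulk tissue, fewer cells of a type and less RNA per cell cannot be told apart.

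With 16 libraries, 4404 of 20953 genes (21%) were called at an adjusted p under 0.05 (edgeR's quasi-likelihood test with Benjamini-Hochberg adjustment), 2256 of them higher with a ligature (10.8%) and 2148 lower (10.3%). The 4 against 4 comparison of ligature with control called 1233 higher (5.88%) and 1001 lower (4.78%), and that of ligature plus trauma with trauma called 464 higher (2.21%) and 685 lower (3.27%). The 2 smaller comparisons share no libraries with each other, but each is contained in the 8 against 8. What the larger comparison adds is precision: the median standard error of a log2 fold change was 0.30, against 0.43 in either 4 against 4, and the median 95% interval reached 0.64 to each side of the estimate in place of 0.91. Of the genes called with 16 libraries 40.6% (1787) had changes under 2-fold, compared with 16.8% (375 of 2234) and 8.88% (102 of 1149) in the smaller comparisons. No gene passed the test for a ligature effect that differs with trauma in edgeR (1032 genes at an unadjusted p under 0.05, 4.93% of those tested), none passed in limma-voom, and DESeq2 called 51.

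The moderate genes are those called with 16 libraries at under 2-fold and in neither 4 against 4. There were 1119 (5.34% of those tested), of which 641 were higher with a ligature (3.06%) and 478 lower (2.28%). The higher genes had a median log2 change of 0.66 and the lower ones -0.66, a factor of 1.58 either way, and the smallest passing changes were 0.31 in either direction. The rule fixes that such genes move the same way in both smaller comparisons, so this is no sign of stability, and their sizes are given as a description. Among moderately to highly expressed genes, Bud31 (0.9961) was just inside the fold limit and Timm13 (1.0003) just outside it, while Hadh (adjusted p 0.04998) and Atxn7l3b (0.05005) lay on either side of the p limit. In 31 of the 641 higher genes and 18 of the 478 lower genes the 8 libraries with a ligature did not overlap the 8 without. Over all genes tested 2.57% lay wholly above and 2.05% wholly below, and over all called genes 23.7% of the higher and 19.9% of the lower ones did, so nothing is read from these counts.

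Transcript length was not part of the rule, and it differed between the 2 directions. The longest annotated transcript had a median of 2484 bases in the higher moderate genes, 4538 in the lower ones and 2804 in all genes tested. In the shortest decile of genes the median log2 change was 0.48 with 16 libraries and -0.06 with 13, and in the longest decile it was -0.30 and -0.14. The shortest decile held 40 higher and 1 lower moderate gene, and the longest decile 30 higher and 131 lower. With the length score as a covariate 559 of the 1119 were still called in the same direction, and in the 13 libraries 332 were. Removing the length trend from each library kept 897, and 277 (24.8%), 180 higher and 97 lower, were called the same way in all 3 of these fits. They are called length-robust genes here.

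**Figure D1:**
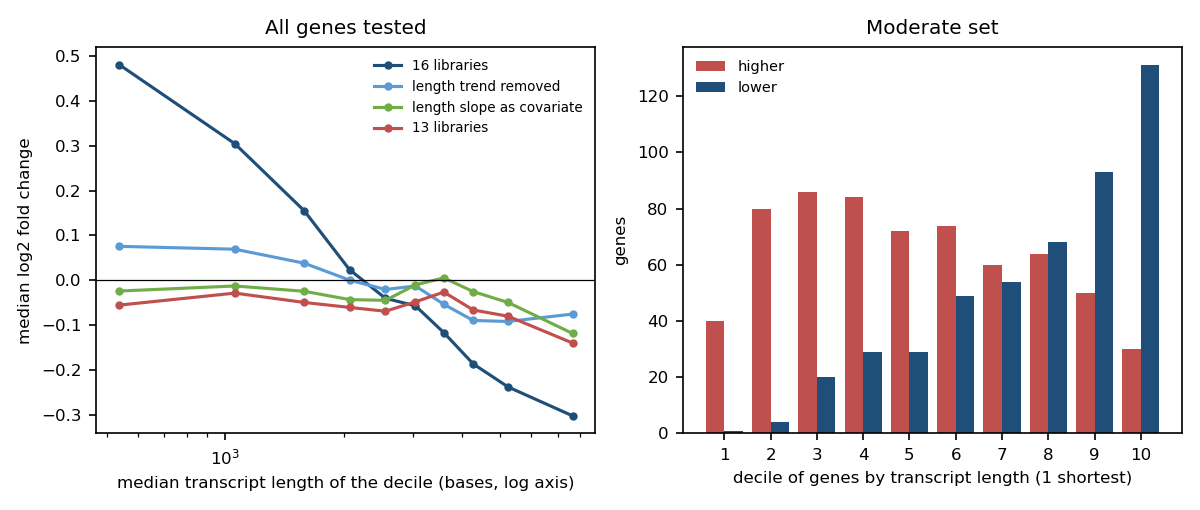
Left, median log2 fold change (with minus without a ligature) of all genes tested against the median transcript length of each decile of genes (log axis), in 4 fits. Right, number of moderate genes higher or lower in each decile. The line for 16 libraries falls from 0.48 to -0.30, and the other 3 lines stay between 0.08 and -0.14.

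The 12 higher moderate genes with the lowest p rose by 0.47 to 0.96 on the log2 scale (standard errors 0.10 to 0.21, adjusted p 0.00252 to 0.00519), and all 12 were length-robust. They include genes of the mitochondrion, of transcription and of phagocytes. Ghitm, an inner mitochondrial membrane protein, was at 284 to 351 CPM without a ligature (median 321) and at 400 to 507 CPM with one (median 442). Every library with a ligature lay above every library without, and the rise was 1.40-fold (log2 0.48 ± 0.10, adjusted p 0.00355), yet the adjusted p was 0.0506 in ligature against control and 0.0819 in ligature plus trauma against trauma. Ndufs1, the largest subunit of respiratory complex I, went from 90.3 to 103 CPM (median 98.8) to 104 to 179 CPM (median 152), with the lowest library with a ligature barely above the highest without. Its log2 change was 0.57 ± 0.13 (adjusted p 0.00519) and 0.73 in the 13 libraries.

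Genes of the nucleus and the secretory route were among the 12. Ints12, a subunit of the Integrator complex that processes small nuclear RNAs, was at 29.2 to 37.8 CPM without a ligature (median 33.2) and 41.3 to 55.4 with one (median 46.3), a change of 0.50 ± 0.11 (adjusted p 0.00339). Pigk, part of the enzyme that attaches GPI anchors to membrane proteins, was at 54.3 to 73.8 CPM (median 64.6) without and 80.1 to 97.8 (median 87.9) with a ligature. Its rise of 0.47 ± 0.10 (adjusted p 0.00452) was the smallest of the 12, and its groups did not overlap. Gtf2h2, a subunit of the general transcription factor TFIIH, rose by 0.66 ± 0.14 (adjusted p 0.00386) and Hmgn5, a nucleosome-binding protein, by 0.80 ± 0.16 (adjusted p 0.00252). In each of them 1 or 2 libraries with a ligature lay within the range of those without. Ddx41, an RNA helicase, Galk1, the galactose kinase, Lmbr1 and C1qtnf7 rose by 0.51, 0.75, 0.58 and 0.71. In the 13 libraries the changes of Hmgn5, Galk1 and C1qtnf7 were 0.53, 0.43 and 0.43.

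Genes of phagocytes had the largest changes of the 12. Ctss, the lysosomal protease cathepsin S of antigen-presenting cells, was at 76.1 to 187 CPM without a ligature (median 150) and 210 to 412 with one (median 246), with no overlap. The log2 change was 0.96 ± 0.20 (adjusted p 0.00325), and 0.64 in the 13 libraries (adjusted p 0.0342). Sirpa, the inhibitory receptor by which macrophages read CD47 on other cells, rose from a median of 51.3 to 106 CPM (0.94 ± 0.21, adjusted p 0.00509), although 2 libraries with a ligature lay within the range of those without. In the 13 libraries its change was larger, 1.21 (adjusted p 0.000104). Of 14 monocyte and macrophage markers 5 were higher and 3 lower (10.8% and 10.3% of all genes, median -0.20). The counts were 3 and 7 with the length score, and 3 and 6 in the 13 libraries (median -0.52). Their summed level was 2770 to 4240 CPM with a ligature and 1460 to 3080 without. That sum mostly follows 1 gene: over the 16 libraries Lyz2 had 1675969 counts and the next marker, Cd68, 230240. The part of these cells in the values above was not tested.

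**Figure D2:**
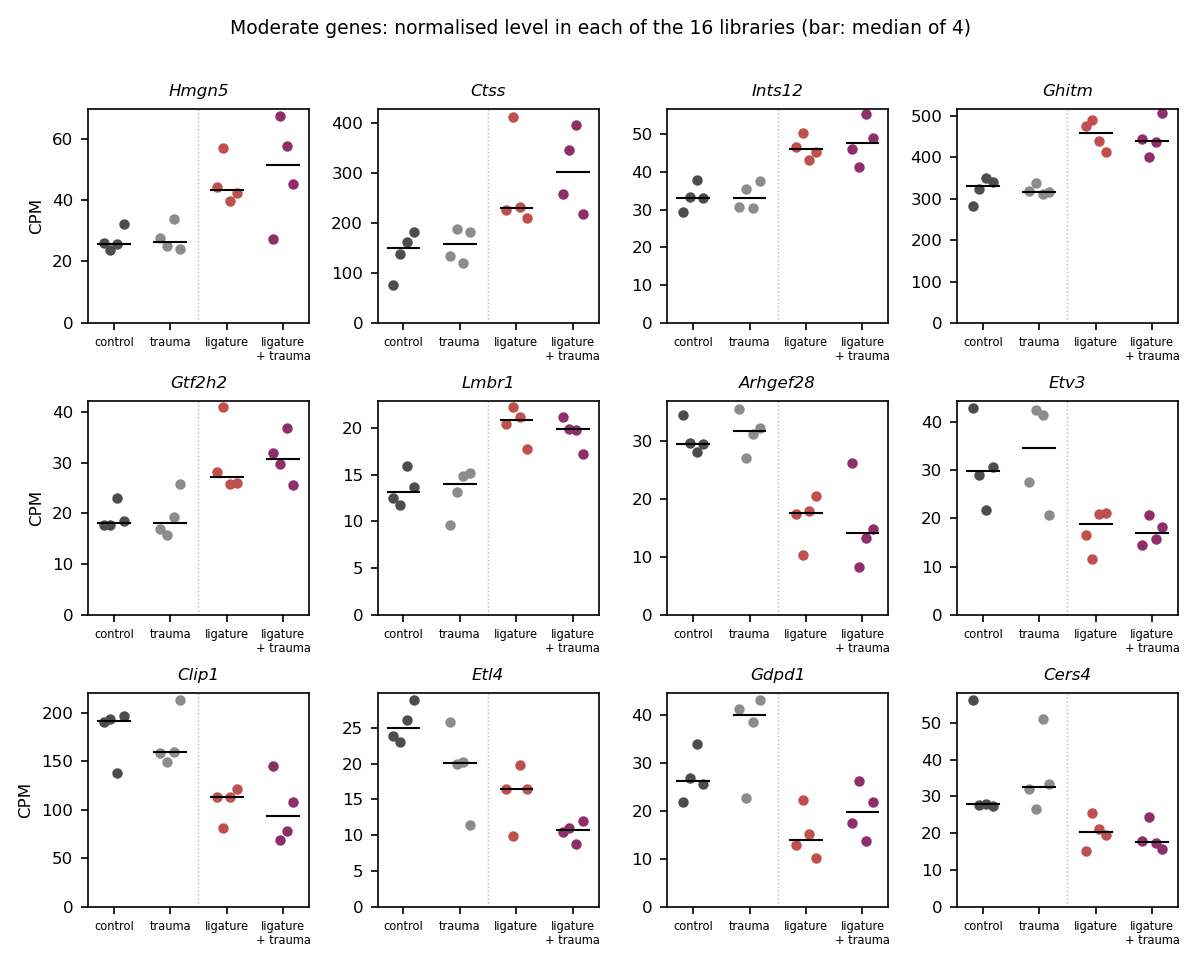
Normalised level (CPM, linear axes from 0) of 12 moderate genes in each of the 16 libraries. Points are libraries, bars are medians of 4, and the dotted line separates groups without (left) and with a ligature (right). The 6 higher genes and the 6 lower genes with the lowest p are shown. In both groups with a ligature their medians lie on the same side of the groups without, which the rule that picked them largely sets.

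The 12 lower moderate genes with the lowest p fell by 0.60 to 0.94 on the log2 scale (adjusted p 0.00296 to 0.00591). They had a median transcript length of 6698 bases, and 7 of the 12 were length-robust. Arhgef28, a RhoA-activating exchange factor linked to focal adhesions, was at 27.1 to 35.6 CPM without a ligature (median 30.4) and 8.29 to 26.2 with one (median 16.1). The groups did not overlap, and the change was -0.94 ± 0.20 (adjusted p 0.00296) with 16 libraries and -0.68 with 13. Tanc1, a scaffold protein, went from 99.4 to 125 CPM (median 106) to 49.9 to 91.8 (median 72.2), again without overlap, a change of -0.60 ± 0.13 (adjusted p 0.00459) that was -0.37 with the length trend removed. Clip1, which binds the growing ends of microtubules, had a median of 175 CPM without and 111 with a ligature (-0.75 ± 0.16, adjusted p 0.00355), and 1 library with a ligature lay within the other range.

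Etv3, an ETS-family transcriptional repressor, fell by 0.88 ± 0.19 (adjusted p 0.00337), Gdpd1, a lysophospholipase D, by 0.86 ± 0.19 (adjusted p 0.00422), and Eva1a, a gene of autophagy and cell death, by 0.60 ± 0.14 (adjusted p 0.00547). Etl4 fell by 0.79 ± 0.17. These 4 were also length-robust. The other 5 lost the call when the length trend was removed, but kept it with the length score as a covariate and in the 13 libraries. They were the ceramide synthase Cers4 (-0.85, adjusted p 0.167 with the trend removed), the podosome scaffold Sh3pxd2b (-0.68, 0.121), the scavenger receptor Stab1 (-0.71, 0.0981), the glutathione-binding protein Lancl1 (-0.60, 0.0794) and the epithelial peroxide-forming oxidase Duox1 (-0.92, 0.0611).

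**Figure D3:**
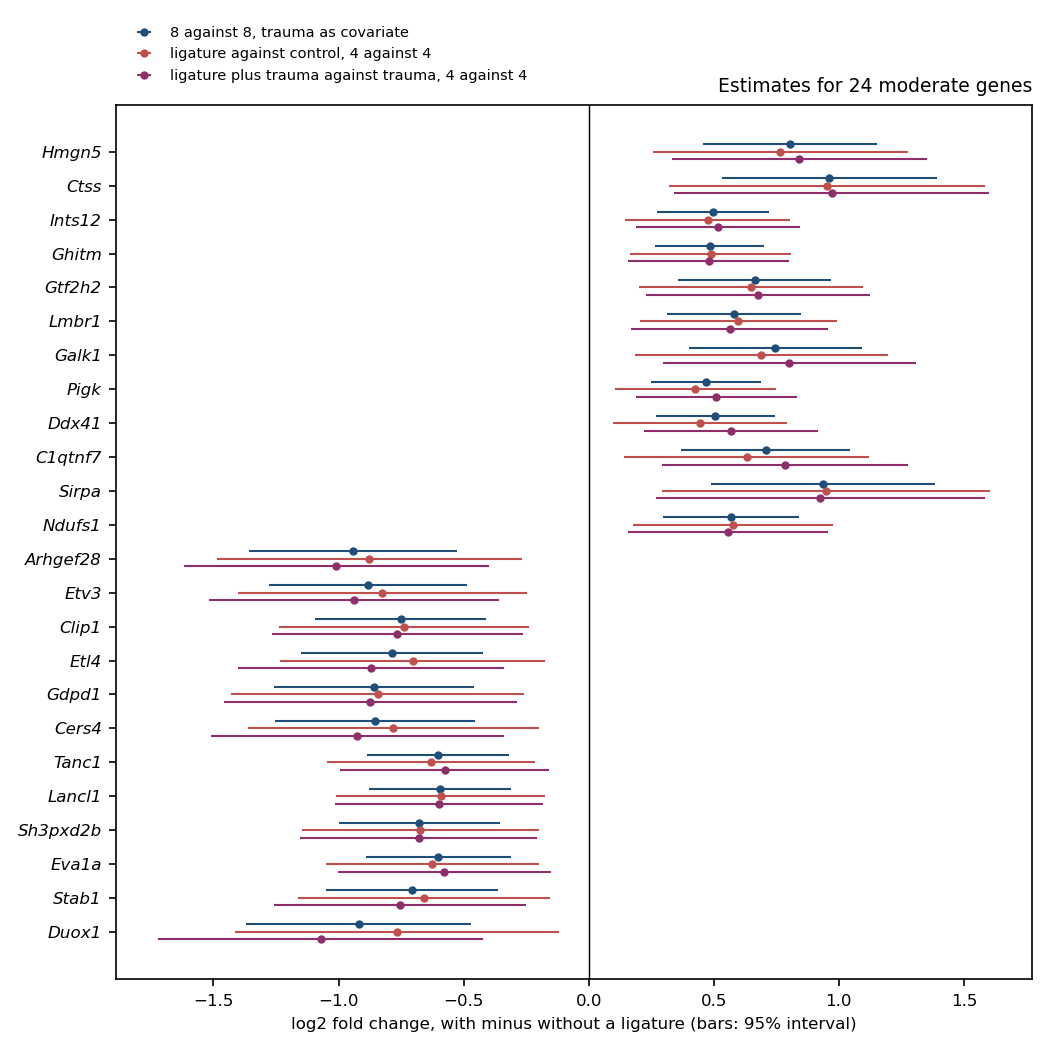
Log2 fold change with its 95% interval for the 24 moderate genes with the lowest p, 12 higher and 12 lower, in the 8 against 8 comparison and in the 2 comparisons of 4 against 4. The intervals of the 8 against 8 are the narrowest. The rule that picked these genes fixes that both smaller comparisons point the same way. That the 3 estimates of a gene lie close together is therefore no sign of stability.

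Genes of the machinery that makes and breaks down proteins were higher by small amounts. The proteasome, the barrel-shaped complex that degrades tagged proteins, had 17 of 33 tested genes higher (10.8% of all genes) and none lower, and 13 of the 17 belonged to the moderate set. The median log2 change over the list was 0.55, against -0.05 over all genes tested. Psmd13, a subunit of the regulatory cap, went from 59.9 to 86.2 CPM (median 70.2) to 82.8 to 134 CPM (median 95.5), a change of 0.54 ± 0.13 (adjusted p 0.00801). The core subunit genes Psma3 (0.72 ± 0.18, adjusted p 0.0107), Psma6 (0.74 ± 0.19, adjusted p 0.0115) and Psma1 (0.58 ± 0.16, adjusted p 0.0179) followed, each with 5 libraries with a ligature inside the range of those without. In the 13 libraries these 4 genes were at 0.33, 0.40, 0.39 and 0.32 and none was called (adjusted p 0.0591 to 0.129). None of the list's 13 moderate genes was length-robust. With the length score as a covariate 8 of 33 were higher, and in the 13 libraries 1 was, with medians of 0.24 in both fits.

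The ribosome of the mitochondrion, which makes the membrane core of the respiratory chain, showed 11 of 24 genes higher and none lower (median 0.50), 6 of them moderate. Mrpl3 was at 26 to 32.4 CPM without a ligature (median 27.5) and 38.5 to 56.7 with one (median 39.6), without overlap, and its rise of 0.57 ± 0.11 (adjusted p 0.00122) was 0.48 in the 13 libraries. Mrpl12 rose by 1.07 ± 0.23 (adjusted p 0.00358), and by 0.54 in the 13 libraries. The list's count went to 5 with the length score and to 3 in the 13 libraries. Of the spliceosome genes 3 of 25 were higher with 16 libraries, near the 10.8% of all genes, and 0 were in either of the other fits.

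Further groups belong to the same route. Aminoacyl-tRNA synthetases, which load amino acids onto tRNAs, had 5 of 19 genes higher with 16 libraries and 7 higher in each of the other 2 fits, and the 3 moderate members were length-robust. Nars was at 106 to 169 CPM without a ligature (median 129) and 152 to 193 with one (median 181), a change of 0.41 ± 0.12 (adjusted p 0.0187). Dars rose by 0.43 ± 0.13 (adjusted p 0.0227, and 0.0507 without replicate 1 of trauma), Rars by 0.53 ± 0.13 (adjusted p 0.00889) and Farsb by 0.56 ± 0.14 (adjusted p 0.0111). The ER translocon and glycosylation list, which brings new proteins into the secretory route, had 7 of 23 higher, then 7 with the length score and 5 in the 13 libraries. Sec11c, a catalytic subunit of the signal peptidase, led it with a rise of 1.40 ± 0.25 (adjusted p 0.000949) that was 0.83 in the 13 libraries. Translation initiation had 5 of 22 higher, against 10.8% of all genes (4 and 3 in the other fits). It was led by the exchange-factor subunit Eif2b3 (1.03 ± 0.14, adjusted p 9.54e-05).

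Energy metabolism was represented by 1 list that joins the tricarboxylic acid cycle and fatty acid oxidation. Of its 25 genes 15 were higher and 1 lower (10.8% and 10.3% of all genes, median 0.53). With the length score 14 were higher, and 13 were in the 13 libraries (median 0.44). Idh3a, a subunit of the cycle's NAD-dependent isocitrate dehydrogenase, was at 70.5 to 114 CPM without a ligature (median 79.9) and 141 to 240 with one (median 159). The groups did not overlap, and the change was 1.05 ± 0.16 (adjusted p 0.000204). The malate dehydrogenase gene Mdh2 rose by 0.95 ± 0.16 (adjusted p 0.000479) and the succinate dehydrogenase gene Sdhc by 0.93 ± 0.16 (adjusted p 0.000573). Their changes lay near 2-fold, and the list held 4 moderate genes. The summed muscle markers reached higher values with a ligature, as given above, and with the muscle score as a covariate 14 of the 25 were still higher.

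Many genes of the cytoskeleton and the lysosome were higher, and 2 of 19 and 3 of 24 tested were moderate (5.34% of all genes). Of 19 actin assembly genes 14 were higher (10.8% of all genes, median 0.92), 16 with the length score and 11 in the 13 libraries. Ligature against control called 11 higher (5.88% of all genes, median 1.11) and ligature plus trauma against trauma called 1 (2.21%, median 0.56). The leukocyte actin-bundling gene Lcp1 rose from a median of 106 to 344 CPM (1.69 ± 0.24, adjusted p 0.000169), and the filament-severing cofilin gene Cfl1 from 593 to 1210 (1.09 ± 0.18, adjusted p 0.000525). The Arp2/3 branching subunits Arpc1b and Arpc4 rose by 0.97 ± 0.17 and 0.81 ± 0.15. Of 24 lysosome genes 11 were higher and 1 lower, and each other fit called 11 higher and 2 lower. Ligature against control called 9 of them higher (5.88% of all genes) and ligature plus trauma against trauma called 3 (2.21%). Gusb, which cleaves glucuronic acid from matrix sugars, was at 55.6 to 118 CPM without a ligature (median 66.7) and 131 to 259 with one (median 184), a change of 1.38 ± 0.18 (adjusted p 6.3e-05), and the protease gene Ctsz rose by 1.39 ± 0.18 (adjusted p 7.54e-05).

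Antioxidant genes split, with 6 of 20 higher and 5 lower, against 10.8% and 10.3% of all genes. The counts were 7 and 7 with the length score, and 4 and 3 in the 13 libraries. The mitochondrial superoxide dismutase gene Sod2 rose from a median of 71.6 to 228 CPM (1.65 ± 0.27, adjusted p 0.000427). Nqo1, a quinone reductase controlled by the factor NRF2, fell from 50.3 to 12.9 CPM (-2.18 ± 0.29, adjusted p 7.87e-05), and the catalase gene Cat from 92.8 to 56.9 CPM (-0.67 ± 0.13, adjusted p 0.00209). With the epithelial score as a covariate 0 of the 20 genes were called in either direction. The part of epithelium in these values was not tested.

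**Figure D4:**
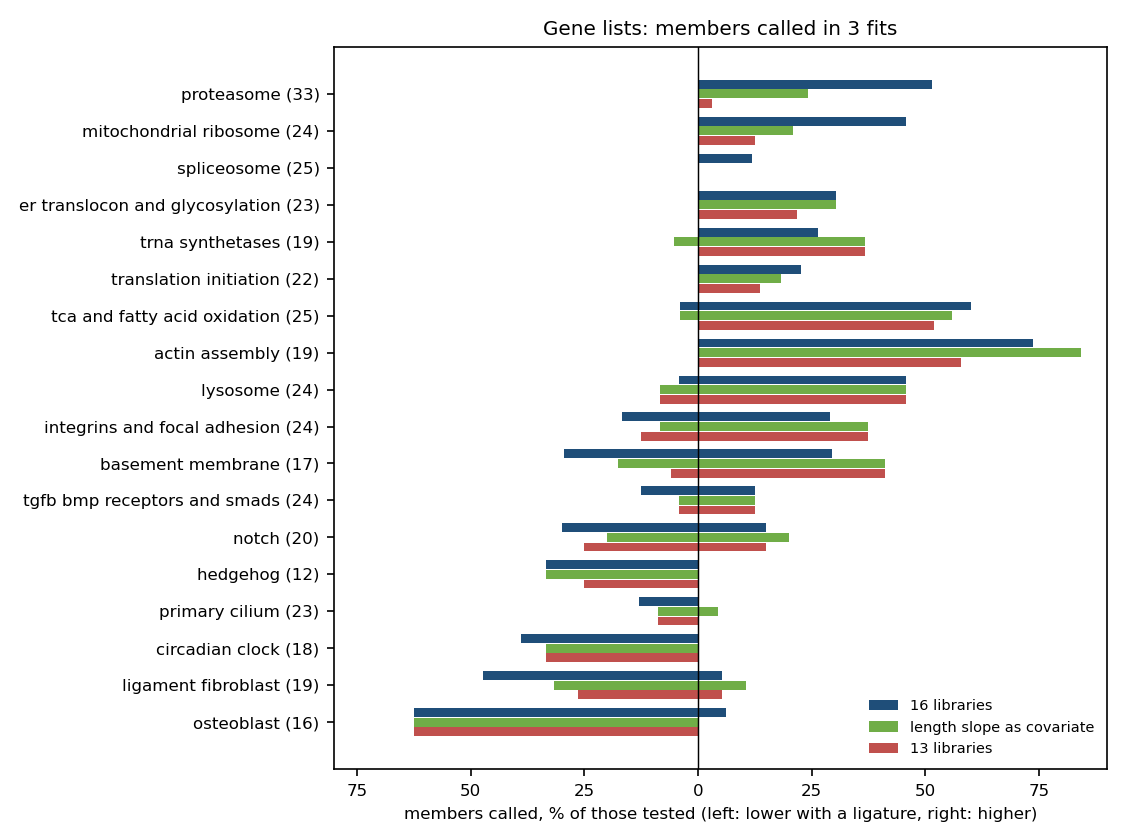
Share of the tested members of 18 gene lists (number tested in parentheses) called lower (left) or higher (right) with a ligature, with 16 libraries, with the length score as a covariate, and in 13 libraries. Proteasome bars shrink from 17 to 8 and 1 genes of 33, and those of actin assembly (14, 16 and 11 of 19) and the clock (7, 6 and 6 of 18) change less.

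Several genes of the circadian clock were lower. The clock is a daily loop in which BMAL1 and CLOCK switch on Per and Cry genes, whose proteins then block them, and in which the PAR-domain factors HLF, TEF and DBP carry the rhythm to other genes. Of 18 list members 7 were lower (10.3% of all genes) and none higher, with a median log2 change of -0.44 over the list against -0.05 over all genes. With the length score 6 were lower and in the 13 libraries 6 were. The promoters of 6 of the 7 are in RefSeq's table (GRCm38.p6, 250 bases before to 50 after the start), and those that hold a clock element are shown here because the members moved together. Capitals mark the E-box CACGTG, the letters that BMAL1 and CLOCK bind, or a D-box (TTATGTAA, TTACATAA or TTACGTAA), the letters that HLF and TEF bind; both motif sets cover both strands and do not overlap.
Bhlhe41 (chr6:145865371-145865670, minus strand): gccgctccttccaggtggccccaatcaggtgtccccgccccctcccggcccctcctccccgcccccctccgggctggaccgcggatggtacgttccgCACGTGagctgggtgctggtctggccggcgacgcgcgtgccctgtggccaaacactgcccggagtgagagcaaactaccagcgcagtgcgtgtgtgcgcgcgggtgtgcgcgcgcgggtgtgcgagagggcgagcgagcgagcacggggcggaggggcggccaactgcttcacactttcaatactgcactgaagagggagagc
Tef (chr15:81802423-81802722, plus strand): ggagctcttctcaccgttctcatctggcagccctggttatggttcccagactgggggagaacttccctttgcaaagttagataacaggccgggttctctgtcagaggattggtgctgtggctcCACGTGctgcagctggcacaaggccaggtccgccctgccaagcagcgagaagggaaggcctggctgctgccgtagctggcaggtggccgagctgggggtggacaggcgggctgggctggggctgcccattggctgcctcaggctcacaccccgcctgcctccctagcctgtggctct
Ciart (chr3:95882179-95882478, minus strand): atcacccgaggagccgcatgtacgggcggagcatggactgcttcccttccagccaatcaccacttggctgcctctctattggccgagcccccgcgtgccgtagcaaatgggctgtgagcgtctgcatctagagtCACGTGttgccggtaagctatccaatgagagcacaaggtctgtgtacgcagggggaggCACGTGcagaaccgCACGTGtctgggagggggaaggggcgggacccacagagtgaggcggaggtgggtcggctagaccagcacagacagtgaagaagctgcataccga
Per1 (chr11:69098699-69098998, plus strand): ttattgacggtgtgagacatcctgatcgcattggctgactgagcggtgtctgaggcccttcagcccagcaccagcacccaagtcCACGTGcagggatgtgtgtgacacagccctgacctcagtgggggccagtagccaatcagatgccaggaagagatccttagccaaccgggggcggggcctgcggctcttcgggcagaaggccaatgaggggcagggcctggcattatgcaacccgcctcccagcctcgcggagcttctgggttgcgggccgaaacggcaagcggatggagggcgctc
Per3 (chr4:151044616-151044915, minus strand): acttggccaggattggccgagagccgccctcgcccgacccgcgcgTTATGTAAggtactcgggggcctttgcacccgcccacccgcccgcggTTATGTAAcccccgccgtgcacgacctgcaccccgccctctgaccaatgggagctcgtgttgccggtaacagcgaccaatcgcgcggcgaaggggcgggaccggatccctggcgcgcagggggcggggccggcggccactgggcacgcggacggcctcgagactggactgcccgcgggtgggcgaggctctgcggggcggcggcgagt

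An E-box was found in 4 of these 6 genes and in 1 of the 10 other list members in the table (Cry1). Among all windows of that source 7.15% hold one, and 8.09% of genes do. Ciart had 3 matches, at positions -116, -58 and -44 from the start, and Per1, Bhlhe41 and Tef had 1 each in the windows shown (-166, -153 and -127). Per3 had no E-box and 2 D-box matches (-205 and -158), an element in 1.06% of windows, and Hlf had neither. A match describes the letters and not the binding of a factor. Sites outside the window of 300 bases and other forms of the E-box were not searched. The genes were split by their call in these same data, so nothing is read from the 2 counts.

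Hlf changed most in the list. It was at 27.6 to 59.1 CPM without a ligature (median 37.1) and 2.57 to 16 with one (median 7.6), with no overlap, a fall of 2.30 ± 0.24 (adjusted p 1.6e-05). Bhlhe41, a repressor that feeds back on E-boxes, went from 15.3 to 31.0 CPM (median 23.9) to 4.02 to 9.79 CPM (median 6.23), a change of -1.83 ± 0.20 (adjusted p 2.14e-05). Its effect was -2.26 in ligature against control and -1.41 in ligature plus trauma against trauma, and the test of that difference had an unadjusted p of 0.0248 and did not pass after adjustment.

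Per3 (median 39.1 to 19.0 CPM, -1.21 ± 0.16, adjusted p 6.3e-05) stood apart between groups too, whereas 1 library with a ligature lay inside the other range for Tef (105 to 47.8 CPM, -1.12 ± 0.19, adjusted p 0.000549). The repressor gene Ciart was lowly expressed and fell from a median of 5.37 to 1.69 CPM (-1.45 ± 0.31, adjusted p 0.00342). Per1, Per2 and Ciart are named after their values were seen. Per1, the list's moderate member, had medians of 14.7 and 9.22 CPM (-0.72 ± 0.23, adjusted p 0.0335). It lost the call without any of 7 libraries (adjusted p 0.0506 to 0.0795) and with the length trend removed (0.164), but was lower by 0.99 in the 13 libraries (0.0127). Per2 fell by 0.68 ± 0.21 (adjusted p 0.0269), lost the call without any of 3 libraries (replicate 4 of control, replicates 1 and 4 of ligature, adjusted p 0.0507 to 0.0551), and was at -0.47 in the 13 libraries (0.127).

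**Figure D5:**
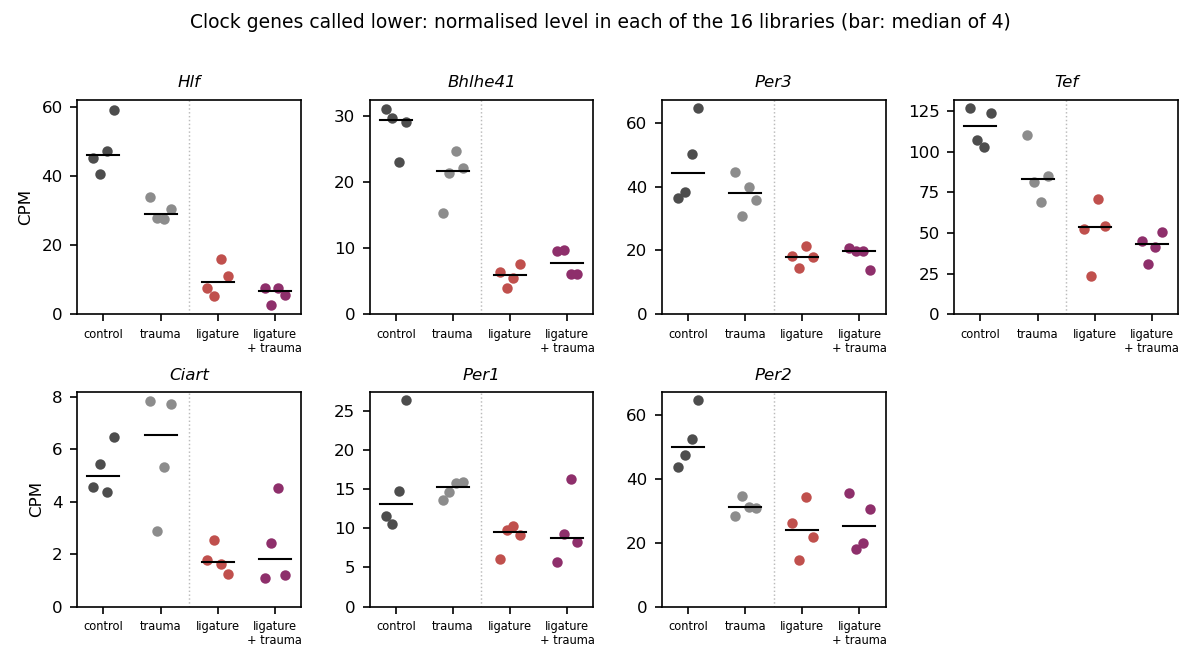
Normalised level (CPM, linear axes from 0) of the 7 clock genes lower with a ligature, in each of the 16 libraries. Points are libraries and bars medians of 4. Hlf, Bhlhe41 and Per3 show no overlap between the 8 libraries left and the 8 right of the dotted line, and the other 4 genes do.

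Signalling pathways of tissue patterning held called genes too. In the Notch list, by which neighbouring cells set each other's fate, 3 of 20 genes were higher and 6 lower (median -0.56). Over all genes 10.8% were higher and 10.3% lower. The Notch counts were 4 and 4 with the length score, and 3 and 5 in the 13 libraries. The endothelial ligand gene Dll4 went from 1.35 to 3.99 CPM (median 2.4) to 5.4 to 11.1 CPM (median 8.26), a change of 1.79 ± 0.22 (adjusted p 5.21e-05), and the Notch-modifying enzyme gene Mfng rose by 1.22 ± 0.22 (adjusted p 0.000797). The receptor gene Notch2 fell from a median of 38.0 to 21.4 CPM (-0.91 ± 0.14, adjusted p 0.000325, and -0.59 with the length trend removed) and the coactivator gene Maml2 from 25.9 to 13.7 (-0.84 ± 0.19, adjusted p 0.00447). In the Hedgehog list, ligature against control called 4 of 12 tested genes lower (4.78% of all genes, median -0.78). Ligature plus trauma against trauma called 0 (3.27% of all genes, median -0.04). No gene passed edgeR's test for a ligature effect that differs with trauma. With 16 libraries 4 were lower (10.3% of all genes) and none higher, with 4 and 3 lower in the other fits. They include the effector Gli2 (median 4.56 to 1.62 CPM, -1.44 ± 0.28, adjusted p 0.00189), the signal transducer Smo (49.6 to 30.0 CPM, -0.63 ± 0.15, adjusted p 0.00615) and the receptor and target Ptch1 (-1.05 ± 0.26, adjusted p 0.0101, and 0.0539 in the 13 libraries).

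Genes of the primary cilium, the antenna on which Hedgehog signals are read, were not called in either 4 against 4. With 16 libraries 3 of 23 were lower, all 3 in the moderate set, and none was higher. That is close to the 10.3% of all genes that were lower, so the count says nothing particular of the list, and in each other fit 2 were lower. Bbs2, a subunit of the BBSome cargo coat, was at 8.96 to 15.8 CPM without a ligature (median 12.1) and 6.88 to 8.88 with one (median 7.59). The groups did not overlap, the change was -0.69 ± 0.15 (adjusted p 0.0039), and it was length-robust. The other 2 were near the threshold. Arl13b, a ciliary GTPase, was at -0.52 ± 0.16 (adjusted p 0.0297, lost without any of 6 libraries at 0.05 to 0.0653), and Ift88, a transport subunit, at -0.74 ± 0.23 (adjusted p 0.0331, lost without any of 7 at 0.0511 to 0.0618). In the 13 libraries their adjusted p was 0.151 and 0.0618, and with the length score 0.0889 and 0.101.

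Of 24 TGF-beta and BMP receptors and SMADs 3 were higher and 3 lower, near the 10.8% and 10.3% of all genes, and each other fit called 3 higher and 1 lower. Higher were Eng (0.84 ± 0.19, adjusted p 0.00495) and Acvrl1 (0.55 ± 0.14, adjusted p 0.0125), which form an endothelial receptor, and Tgfbr1 (1.09 ± 0.31, adjusted p 0.0193). Acvrl1 was length-robust, at 8.59 to 15.1 CPM without a ligature (median 10.8) and 14.2 to 19.9 with one (median 16.4). Smad4, the shared partner of these signals, fell from a median of 40.0 to 24.8 CPM (-0.71 ± 0.18, adjusted p 0.00928) and was length-robust. Of 15 endothelial markers 12 were higher (12 in each other fit), with a summed level of 972 to 1270 CPM with a ligature and 290 to 588 without. With the epithelial score 0 of the 15 were called (median 0.65 in place of 1.19). The part of endothelial cells in the values of Dll4, Mfng, Eng and Acvrl1 was not tested.

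Of 21 cell death genes 7 were higher and 2 lower (10 and 3, then 9 and 2, in the other fits). The initiator caspase gene Casp8 went from 36.3 to 51.0 CPM (median 43.8) to 73.4 to 105 CPM (median 89.6), a change of 1.09 ± 0.12 (adjusted p 2.14e-05). Gsdmd, whose product forms the pores of pyroptosis, rose by 0.89 ± 0.15 (adjusted p 0.000569). In the DNA damage and p53 list 4 of 21 were higher and 6 lower (3 and 4, then 3 and 5), against 10.8% and 10.3% of all genes. The cell cycle inhibitor gene Cdkn1a fell from a median of 676 to 329 CPM (-0.94 ± 0.15, adjusted p 0.000445). Fgf7, the keratinocyte growth factor made by fibroblasts, was raised in all 8 libraries with a ligature, 242 to 464 CPM (median 344) against 25 to 47.2 (median 32.5), by 3.34 ± 0.17 (adjusted p 5.89e-09).

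Integrins, the receptors by which cells hold their matrix, and the proteins that tie them to actin included several that were called only in the larger comparison. Of 24 list members 7 were higher and 4 lower with 16 libraries (10.8% and 10.3% of all genes). Ligature against control called 1 and 2 (5.88% and 4.78%), and ligature plus trauma against trauma called 1 and 0 (2.21% and 3.27%). The other fits called 9 and 2, then 9 and 3. The list held 7 moderate genes, 6 higher and 1 lower, and the 6 higher ones were all length-robust. Except for Itga1 they are named after their values were seen. Itga1, a collagen-binding integrin subunit, was at 7.6 to 18 CPM without a ligature (median 13.9) and 14.7 to 41.3 with one (median 28.6), a change of 0.96 ± 0.23 (adjusted p 0.00645).

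Itga11, the collagen-binding subunit of fibroblasts, went from a median of 20 to 39.8 CPM (0.76 ± 0.22, adjusted p 0.0217), and Itga5, the fibronectin-binding subunit, from 27.4 to 59.2 CPM (0.99 ± 0.31, adjusted p 0.0335). The adaptor genes Zyx (0.60 ± 0.17, adjusted p 0.0169), Pxn (0.67 ± 0.21, adjusted p 0.0349) and Tln1 (0.48 ± 0.16, adjusted p 0.0447) encode zyxin, paxillin and talin, the links from integrins to actin. In the 13 libraries the changes of these 6 genes ranged from 0.61 for Zyx to 1.39 for Itga5. In the 3 libraries left out there, Itga5 was at 18.2 to 25.9 CPM and Pxn at 14.5 to 23.9 CPM. Without a ligature they were at 19.7 to 39.5 and 10.3 to 25.9 CPM. Zyx was at 30.86 to 49.25 CPM in those 3 libraries, against 17.18 to 35.02 without a ligature. The calls of Itga5, Pxn and Tln1 were close to the threshold: leaving out any of 10, 9 and 11 libraries ended them, with adjusted p up to 0.0748, 0.0675 and 0.0941. Itgb5 was the lower member (-0.53 ± 0.17, adjusted p 0.0352), and it was not called with the length score (0.102), in the 13 libraries (0.141) or without any of 7 libraries (0.0587 to 0.0815).

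Among the members beyond the moderate range, Itgb3, the osteoclast and platelet subunit, rose from a median of 30.8 to 141 CPM (2.28 ± 0.31, adjusted p 0.000102). Itga6, the laminin-binding subunit of epithelium and vessels, fell from 163 to 87.5 CPM (-1.27 ± 0.35, adjusted p 0.0152, and 0.0644 with the length score). Basement membrane genes divided, 5 of 17 higher and 5 lower, against 10.8% and 10.3% of all genes. The counts were 7 and 3 with the length score, and 7 and 1 in the 13 libraries. The collagen chain genes of vessel walls were higher, with Col18a1 at a median of 33.0 and 119 CPM (2.04 ± 0.22, adjusted p 1.81e-05) and Col4a1 at 60.4 and 262 CPM (2.08 ± 0.24, adjusted p 2.92e-05). Lama2, the laminin chain around muscle and nerve fibres, fell from 29.5 to 9.89 CPM (-1.54 ± 0.18, adjusted p 3.34e-05).

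Of 19 ligament fibroblast genes 9 were lower and 1 higher, against 10.3% and 10.8% of all genes. The other fits called 6 and 2, then 5 and 1, and 3 of the 9 lower ones were moderate. Col1a2, a chain of type I collagen and the main fibre of the ligament, was at 11900 to 22800 CPM without a ligature (median 15100) and 6660 to 11500 with one (median 7760). The groups did not overlap, and the change was -0.96 ± 0.18 (adjusted p 0.00105). Postn, the periostin gene by which the ligament is recognised, was high everywhere, 6010 to 31400 CPM without and 9000 to 26800 with a ligature, and its difference of -0.17 ± 0.32 had a 95% interval from -0.84 to 0.50 (adjusted p 0.747).

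Many genes of bone formation were lower and most of those of osteoclasts higher. Of 16 osteoblast genes tested 10 were lower (10.3% of all genes) and 1 higher, and the same 10 were called lower in both other fits. Ligature against control called 11 lower (4.78% of all genes, median -1.22) and ligature plus trauma against trauma called 5 (3.27%, median -0.58). The summed level of the list overlapped, at 24900 to 35600 CPM with a ligature (median 30700) and 19400 to 40800 without (median 31100). Spp1 had the most counts of the list over the 16 libraries (13794794), ahead of Col1a1 (8108369) and Ibsp (7288774). The master regulator Runx2 went from 102 to 150 CPM (median 118) to 57.5 to 112 CPM (median 78.1), a fall of 0.60 ± 0.14 (adjusted p 0.00708, and -0.40 with the length trend removed), and Cadm1, an adhesion gene of osteoblasts, fell by 1.07 ± 0.14 (adjusted p 7.05e-05). Sp7, the next factor of the osteoblast line, did not pass with 16 libraries (-0.46 ± 0.18, adjusted p 0.0768) although it did in ligature against control (-0.83, adjusted p 0.024). Its effect was -0.08 in ligature plus trauma against trauma, and the difference had an unadjusted p of 0.0258 and was not called after adjustment. Of 14 osteoclast markers 12 were higher (12 in each other fit), against 10.8% of all genes. Their summed levels were 10700 to 16700 CPM with and 1390 to 4380 CPM without a ligature. The collagenase gene Mmp13 rose from a median of 2980 to 13100 CPM (2.28 ± 0.39, adjusted p 0.000596).

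The 4 signals of the panel that govern osteoclasts did not pass the test. The wider list that holds them had 6 of 19 genes higher and 4 lower, against 10.8% and 10.3% of all genes. The other fits called 7 and 1, then 6 and 1. Tnfsf11 was at 65.6 to 103 CPM in all 8 libraries with a ligature (median 88.1) but ranged from 2.56 to 117 CPM without (median 18.1). The controls, at 2.56 to 37.5 CPM, all lay below the 4 libraries of ligature alone (65.6 to 97.8 CPM). Trauma alone was split: replicates 2 and 4 were at 87.9 and 117 CPM, replicates 1 and 3 at 5.48 and 17.3 CPM. With 16 libraries the change of Tnfsf11 was 1.41 ± 0.55 and did not pass (95% interval 0.25 to 2.57, adjusted p 0.0781). Without replicate 4 of trauma it was 1.75 and passed (adjusted p 0.0273). Its decoy receptor gene Tnfrsf11b had medians of 280 and 178 CPM (-0.65 ± 0.27, adjusted p 0.0987, and 0.0251 without replicate 4 of ligature plus trauma). Csf1, the growth factor of osteoclast precursors, differed by 0.31 ± 0.19 (adjusted p 0.272) and Tnf by -0.40 ± 0.41 (adjusted p 0.52).

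Sost, by which osteocytes restrain bone formation, was called only with 16 libraries. It was low, at 0.749 to 14.8 CPM without a ligature (median 4.63) and 0 to 1.77 with one (median 1.02), a fall of 2.65 ± 0.74 (adjusted p 0.0174). Without replicate 1 of trauma it was at -2.19 and lost the call (adjusted p 0.0706), and with the length score too (0.071). Pdpn, an early osteocyte gene also made by fibroblasts and lymphatic vessels, was the only other osteocyte list gene called, of 9 tested. It was moderate and length-robust, at medians of 30.6 and 40.7 CPM (0.50 ± 0.13, adjusted p 0.0135). Piezo1, the mechanically gated channel, differed by 0.63 ± 0.22 (adjusted p 0.054). It passed with the length score (0.96, adjusted p 0.00025), in the 13 libraries (0.87, adjusted p 0.00598) and without replicate 2 of ligature (0.74, adjusted p 0.00673) or replicate 1 of ligature plus trauma (0.67, adjusted p 0.0493).

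Larger changes were also gained by the 8 against 8 comparison: of 2041 genes called there and in neither 4 against 4, the 922 outside the moderate set changed by 2-fold or more. Acta1, skeletal muscle actin, was at 0.309 to 22.5 CPM without a ligature (median 0.846) and 2.53 to 180 with one (median 23.6), and rose by 3.71 ± 0.87 (adjusted p 0.00662). Of the 19 muscle markers tested 2 were higher (median 2.48), near the 10.8% of all genes, and 1 was in each other fit. Gldc, a glycine-cleaving enzyme gene, and Depdc1a, a gene of dividing cells, rose by 1.91 ± 0.44 and 1.77 ± 0.45 (adjusted p 0.00591 and 0.011). The short leukocyte transcript Cd52 rose by 1.63 ± 0.40 (adjusted p 0.00904) and the short interferon-induced Ifi27l2a by 1.73 ± 0.55 (adjusted p 0.0334), but in the 13 libraries these were 0.47 (0.207) and 0.08 (0.908). Ifi27l2a lost the call without any of 6 libraries (adjusted p up to 0.144).

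Of the 24 epithelial markers 21 were lower (10.3% of all genes, median -2.41), and 19 and 16 were in the other fits. Ligature against control called 11 lower (4.78% of all genes) and ligature plus trauma against trauma called 18 (3.27%). The 5 genes with the largest falls beyond the reach of the smaller comparisons included the skin protease Asprv1 (-3.28 ± 0.89, adjusted p 0.0152), the protease inhibitor Spink5 (-3.24 ± 0.93, adjusted p 0.0203) and the cornified envelope gene Evpl (-2.44 ± 0.58, adjusted p 0.00713). The other 2 were Mfsd4a (-2.83 ± 0.75, adjusted p 0.0135) and Chil1 (-2.50 ± 0.60, adjusted p 0.00768). Asprv1 lay at 1.63 to 451 CPM without a ligature and 2.84 to 32.8 with one, so its range with a ligature was inside the other. Without replicate 2 of control its change was -1.93 (adjusted p 0.13), and Spink5 also lost the call without that library (-3.07, adjusted p 0.0534). In the 13 libraries Spink5 and Evpl were not called (adjusted p 0.106 and 0.0688), and with the muscle score Asprv1 was not (0.0652).

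With the epithelial score as a covariate 572 genes were called in place of 4404, and 27 of the 1119 moderate genes were called in the same direction. None of the 12 higher moderate genes named above was, and 1 of the 12 lower ones was (Sh3pxd2b, -1.08, adjusted p 0.0243). The score was -2.55 to -0.38 in the libraries with a ligature and -1.08 to 4.16 in those without, so it largely separates the groups, and the ligature and the share of epithelium in the sample cannot be told apart in these libraries. The median log2 change of the higher moderate genes was 0.57 with that covariate and 0.66 without it, and that of the lower ones -0.65 and -0.66. With the muscle score 564 of the 1119 were still called the same way.

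Perivascular and other cell markers moved as well. Mcam, a marker of pericytes and vessel walls, rose from a median of 18.5 to 83.7 CPM (2.05 ± 0.15, adjusted p 8.21e-07), and 5 of 12 markers of pericytes and smooth muscle were higher and 1 lower (3 and 2 higher, none lower, in the other fits). Of 13 mature neutrophil markers 9 were higher, but 5 with the length score and 4 in the 13 libraries. Ligature against control called 8 of them higher (5.88% of all genes) and ligature plus trauma against trauma called 2 (2.21%). Their summed level was 873 to 4430 CPM with a ligature and 241 to 5630 without. It mostly follows S100a8 and S100a9, with 773926 and 686527 counts over the 16 libraries, against 186969 for the next marker, Lcn2. Of 13 nerve and Schwann cell markers 6 were lower, then 4 and 3. The smaller comparisons called 6 in ligature against control (4.78% of all genes) and 0 in ligature plus trauma against trauma (3.27%). Of 12 cartilage markers 6 were lower, then 3 and 2. Over all genes 10.8% were higher and 10.3% lower. Of the salivary gland list 5 of 10 genes passed the filter, and their summed level was 3.56 to 7.29 CPM with a ligature and 5.44 to 37.5 without.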

How the data were processed

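RNA of periodontal ligament was poly(A)-enriched and sequenced. The deposited table gives gene counts, which the authors made; per the submitters' processing notes Trimmomatic 0.39, FastQC 0.11.9, HISAT2 2.2.1, StringTie 2.1.7, DESeq2 1.32.0 and GRCm39 were used, with no statement of their roles, the annotation or strand. Symbols were matched to 52083 of 55359 identifiers, and genes without a symbol held 0.205% of counts. Transcript lengths are those of the longest transcript in GENCODE's GRCm38 annotation, known for 99.7% of genes tested. The members and lists were chosen with earlier results of these data known.

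Counts were fitted with edgeR 4.0.16 (R 4.3.3, TMM scaling, expression filter with a minimum count of 10, quasi-likelihood test) as trauma plus ligature, with 13 residual degrees of freedom; the 4 against 4 comparisons came from a 4-group fit of all libraries (12). Values after ± are standard errors. CPM are TMM-scaled. Named moderate genes are the 12 each way with the lowest p at a mean log2 CPM of at least 4, without predicted, ribosomal protein or antigen receptor genes. Also named are up to 4 genes of each described list, 10 bone genes and the 5 largest changes each way called in neither 4 against 4 (mean log2 CPM of at least 2). The scripts were tested on simulated data. Alternatives were DESeq2 1.42.0, limma 3.58.1 voom with sample weights, other scaling and filters, no trauma term, a replicate block, length, muscle and epithelium corrections, 13 libraries, stricter thresholds, and each library left out. No 2 libraries were duplicates (highest correlation of log2 CPM 0.948). The 47 lists held 861 entries.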

Additional observations from a re-analysis of the deposited data

Results flagged for a closer look

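In 218 groups of 8 libraries (109 named genes, with and without a ligature), 10 had 1 library far from the rest by Dixon's criterion, and chance alone flags about 1 in 20. Replicate 4 of trauma stood out 3 times among the libraries without a ligature: Galk1 was at 23.2 CPM there (next 18.5), Gusb at 118 CPM (next 73.2) and Etl4 at 11.4 CPM (next 20). Replicate 2 of ligature plus trauma was low for Farsb (67.4 CPM, next 91.7) and Itga6 (16.5 CPM, next 56.7), and replicate 3 of that group was high for Mrpl3 (56.7 CPM, next 45). Mfsd4a had 0 counts in replicate 2 of ligature, where the next value was 1.77 CPM. Smad4 was at 67.9 CPM in replicate 2 of trauma (next 44.3), Itga1 at 7.6 CPM in replicate 1 of trauma (next 12.3), and Per1 at 26.3 CPM in replicate 4 of control (next 15.8). Of the genes these flags touch, Per1 lost its call without the flagged library (-0.54, adjusted p 0.0795), and the others kept theirs.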

How the results depend on the processing

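The count of genes called with 16 libraries was 572 with the epithelium score as a covariate and 2077 at an adjusted p under 0.01, against 4404. The count of moderate genes (1119) was 678 in the 13 libraries, 721 with the muscle score, 5 with the epithelium score, 404 at an adjusted p under 0.01 and 401 with a limit of 1.5-fold, and it ranged from 683 (without replicate 3 of ligature plus trauma) to 1406 when each library was left out. The cause was not tested, except that the stricter limits count fewer genes by construction. With the epithelium score 5 genes changed sign: Tnf (0.63), Asprv1 (2.61), Spink5 (0.95), Chil1 (0.048) and Evpl (1.69), none of them called in that fit. Of 109 named genes 93 kept direction and call without each library. The replicate block left the same direction and call in 106 and the moderate count at 1214. Replicate numbers are not stated to pair libraries, and same-numbered libraries correlated at -0.16 to 0.22 (median 0.02). The number of libraries, 4 per group, limits what can be separated.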
